A study of Mus musculus with 58 samples.

Results

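The brains of sham-operated mice that carried human APOE4 in place of mouse Apoe were compared with those of mice that carried human APOE3, all of them with a single working copy of Abca1. Members were taken from the sample labels alone: every sham mouse labelled APOE4het (E4/Abca1+/-) or APOE3het (E3/Abca1+/-), which gave 14 of the 58 mice of the study. The E4/Abca1+/- group held 7 mice, 4 female and 3 male, and the E3/Abca1+/- group held 7 mice, 3 female and 4 male. Both groups were targeted replacement mice on a C57BL/6 background, in which a human APOE isoform sits at the mouse locus, and both were Abca1+/-, so that the APOE isoform was the difference the design set between them. Mice were 3 months old, had the craniotomy of the study's injury protocol but no impact, and were collected 14 days after surgery. Cortex and hippocampus of each mouse were frozen together, so that neither region nor cell type was separated. The other 44 mice were E3 or E4 mice with both Abca1 copies, or mice of the same genotypes given a controlled cortical impact, a model of traumatic brain injury (TBI), and are used here only for comparison.

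APOE is the main carrier of cholesterol and phospholipid between brain cells and is secreted chiefly by astrocytes. ABCA1 is the membrane transporter that loads lipid onto it, and with less ABCA1 the particles carry less lipid. The E3 and E4 isoforms differ by a single residue, and E4 is the common isoform that raises the risk of Alzheimer's disease and is the less lipidated form. A comparison of E4 with E3 mice at 1 copy of Abca1 asks which brain transcripts differ by isoform when lipidation is limited in both groups and no injury has been made.

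RNA-seq read counts per gene were given for 15171 genes, of which 14920 passed a filter on low counts and were tested. Total counts ran from 18311106 to 28467098 in the E4/Abca1+/- libraries (median 20511272) and from 13059250 to 28184924 in the E3/Abca1+/- libraries (median 22835554), with no difference detected between the isoforms (exact permutation test, two-sided p = 0.917). The sex of each library read from its counts matched the label in 14 of 14 mice, and 0 of 42 pairs of libraries within a group were identical. Levels below are CPM, read counts scaled to a common library total and adjusted by edgeR's trimmed mean of M-values, and differences are log2 fold changes of E4 minus E3 with their standard errors. Differences were called at an adjusted p under 0.05 in edgeR's quasi-likelihood test with Benjamini-Hochberg adjustment over all tested genes. Mice are named by isoform and a number that only serves as a name.

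Mouse Apoe and Abca1, the engineered genes, were read first. Reads of the mouse Apoe gene (chr7:19696244-19701310) were at 19.0 ± 1.99 CPM in E4 mice and 20.5 ± 1.87 CPM in E3 mice (SD, n = 7 each), a difference of -0.11 (adjusted p = 0.369). The table has no row for human APOE, and whether these reads came from the human transcript or from mouse sequence was not tested. Abca1 (chr4:53030789-53159988) was at 35.5 ± 4.84 CPM in E4 mice and 35.0 ± 3.78 CPM in E3 mice (SD, n = 7 each), a difference of 0.02 (adjusted p = 0.918). Both groups carried the same Abca1 label.

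In E4/Abca1+/- mice 435 genes were higher (2.92% of tested genes) and 352 were lower (2.36%) than in E3/Abca1+/- mice, 787 in all (5.27%). The higher genes differed by a median log2 fold change of 0.20 and the lower genes by -0.29, and 698 of the 787 (88.7%) differed by less than 0.5. Only 25 called genes differed by 1 or more, 13 higher and 12 lower. Of these 25, 5 lay on chromosome 7, which held 1129 of the 14920 tested genes, and 7 on chromosome 12, which held 552. With the GC correction described below 21 of the 25 stayed past the threshold. The groups did not overlap for 245 of all tested genes (1.64%), 229 of them called. At an unadjusted p under 0.05 there were 3491 genes (23.4%). The median log2 fold change of all tested genes was 0.0012.

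**Figure D1:**
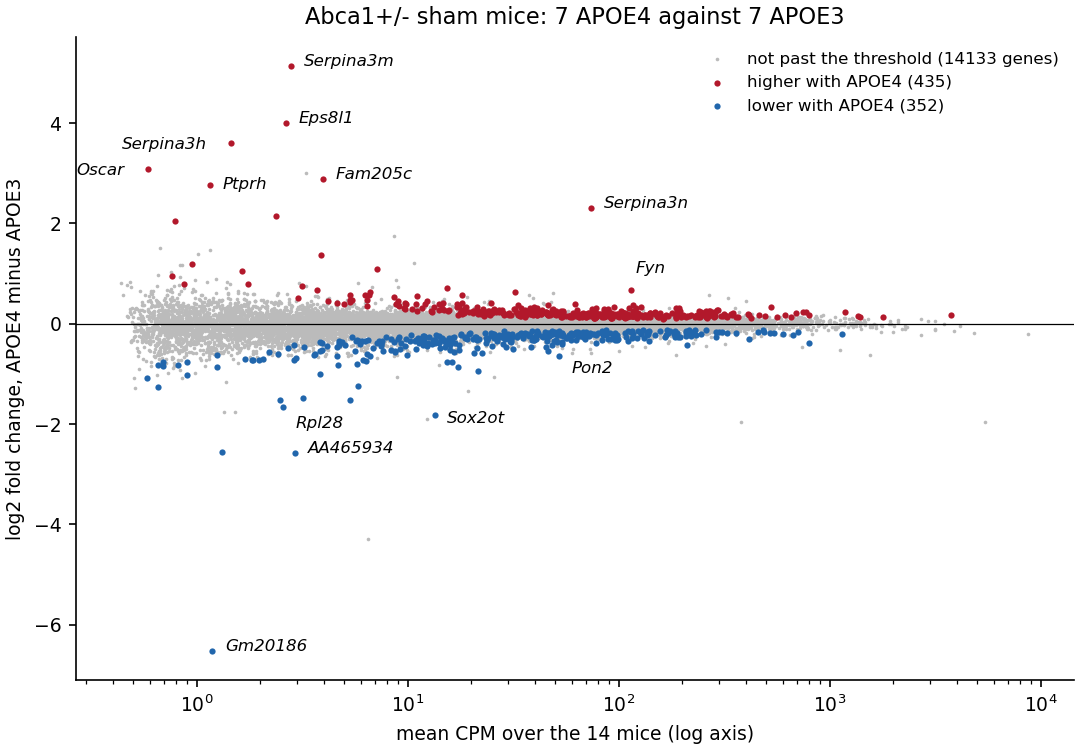
Log2 fold change (E4 minus E3, vertical axis) against mean CPM over the 14 mice (horizontal, log axis) for the 14920 genes tested in sham Abca1+/- mice. Coloured points are the 435 genes called higher and the 352 called lower. Most called genes sit close to 0, and a small number, the Serpina3 genes, Eps8l1, Oscar and Ptprh above and Gm20186, Sox2ot and Rpl28 below, stand far from the rest.

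Part of the small differences moved with base composition. The transcripts of the higher genes had a median GC content of 43.5% (interquartile range 40.7 to 46.9) and those of the lower genes 57.1% (53.1 to 59.9), against 49.8% over the 14768 genes with a value. Among the 1765 genes under 42% GC, 148 were called higher and 10 lower, and among the 1470 genes at 58% or more, 0 were called higher and 146 lower. In each library the slope of log2 CPM on GC content was computed across genes. Slopes per 10 percentage points ran from -0.14 to 0.04 in E4 mice (mean -0.06) and from 0.01 to 0.10 in E3 mice (mean 0.06), and the groups differed (exact permutation test over 3432 splits, two-sided p = 0.00233). E4 mice 3, 6 and 7 had the lowest slopes (-0.14, -0.14 and -0.13), E4 mice 2 and 4 (-0.06 and -0.0045) also lay below every E3 mouse, and E4 mice 1 and 5 lay within the E3 range. With a correction for GC content in each library, chosen after these values were seen, 183 genes were higher (1.24%) and 109 lower (0.738%), 292 in all (1.98%), and 229 of these were among the 787. The part of base composition in the 787 differences beyond this was not tested, and the call with the correction is given below for each named gene that lost it.

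**Figure D2:**
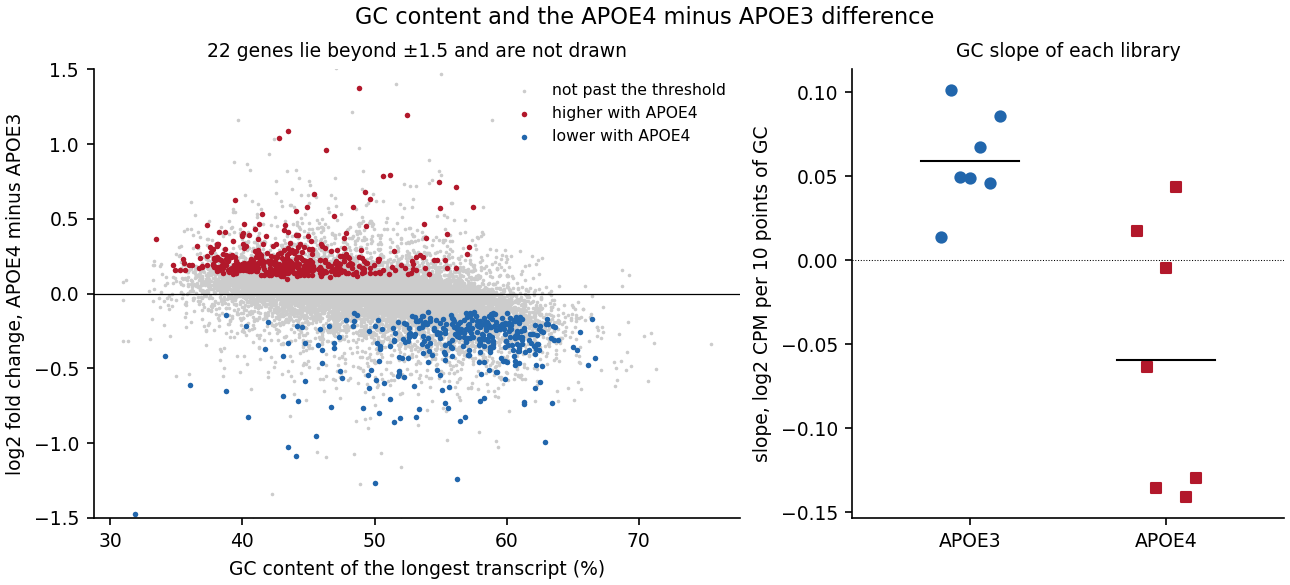
Dependence of the measurements on transcript GC content (percent). The left panel shows the log2 fold change of E4 minus E3 for each gene against the GC content of its longest transcript, with 22 genes beyond ±1.5 not drawn, and the right panel shows the slope of log2 CPM per 10 points of GC in each of the 14 libraries, with lines at the group means. E4 slopes lie between -0.14 and 0.04 and E3 slopes between 0.01 and 0.10, and genes under 42% GC lie above 0 at the median (0.09) while genes at 58% or more lie below it (-0.16).

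The Serpina3 cluster of chromosome 12 held the strongest rise. These genes encode secreted inhibitors of serine proteases, and Serpina3n is a well-known marker of reactive astrocytes. Serpina3n (chr12:104406646-104414334) ran from 62.1 to 188.2 CPM in E4 mice (median 130.0) and from 19.2 to 32.4 CPM in E3 mice (median 23.6). Every E4 mouse was above every E3 mouse. The log2 fold change was 2.31 ± 0.21 (adjusted p = 5.98e-06), 1.86 in females alone and 2.72 in males alone. Its neighbour Serpina3m (chr12:104387157-104394259) ran from 2.43 to 9.2 CPM in E4 mice (median 5.73) and from 0.0703 to 0.279 CPM in E3 mice (median 0.166). Here too the groups were fully apart, with a log2 fold change of 5.14 ± 0.33 (adjusted p = 1.25e-07). Serpina3h was between 1.31 and 4.95 CPM in E4 mice and at most 0.447 CPM in E3 mice, a log2 fold change of 3.60 (adjusted p = 4.93e-05), whereas Serpina3g differed by -0.05 (adjusted p = 0.931). These genes are close copies of each other, and how reads that fit several of them were counted is not given in the sources used here, so that the split of reads among them is uncertain. Of the other 20 astrocyte genes tested, none was called by edgeR's quasi-likelihood test, while the edgeR exact test also called Gfap (higher) and DESeq2 Aldoc (lower), and the median log2 fold change of the list was 0.008.

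Further called genes lay on chromosome 12. The 5 Mb stretches here and below, apart from the windows around Apoe and Abca1, were picked from these same calls. They ranked high by their number of called genes with a log2 fold change of 0.5 or more in either direction. Shares above those of the chromosome were therefore built into the choice and are no test of clustering. Between 100 and 105 Mb, the stretch of the Serpina3 genes, 8 of 43 tested genes were called (18.6%), between 110 and 115 Mb, 7 of 60 (11.7%), and between 115 and 120 Mb, 4 of 14 (28.6%), beside 6.52% for the whole chromosome. D430020J02Rik (chr12:116401947-116405161), a gene without a known function here, ran from 4.03 to 9.23 CPM in E4 mice (median 4.84) and from 1.66 to 2.56 CPM in E3 mice (median 2.22). The groups did not overlap, and the log2 fold change was 1.37 (adjusted p = 0.000555). AK010878, named after its values were seen, was at a mean of 9.74 CPM against 4.57 CPM, a log2 fold change of 1.08. Ighg2c, an antibody constant region, was at or above 1.89 CPM in all E3 mice and at most 0.318 CPM in 6 of 7 E4 mice, with E4 mouse 7 at 1.93 CPM, and its log2 fold change was -2.56 (adjusted p = 0.0213), or -4.28 without E4 mouse 7 (adjusted p = 7.55e-05). Among injured Abca1+/- mice its difference was 2.17 and not past the threshold (adjusted p = 0.335), and among sham mice with both Abca1 copies it was -4.85 (adjusted p = 1.57e-06). Constant region genes share sequence with one another, so that this value is uncertain.

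**Figure D3:**
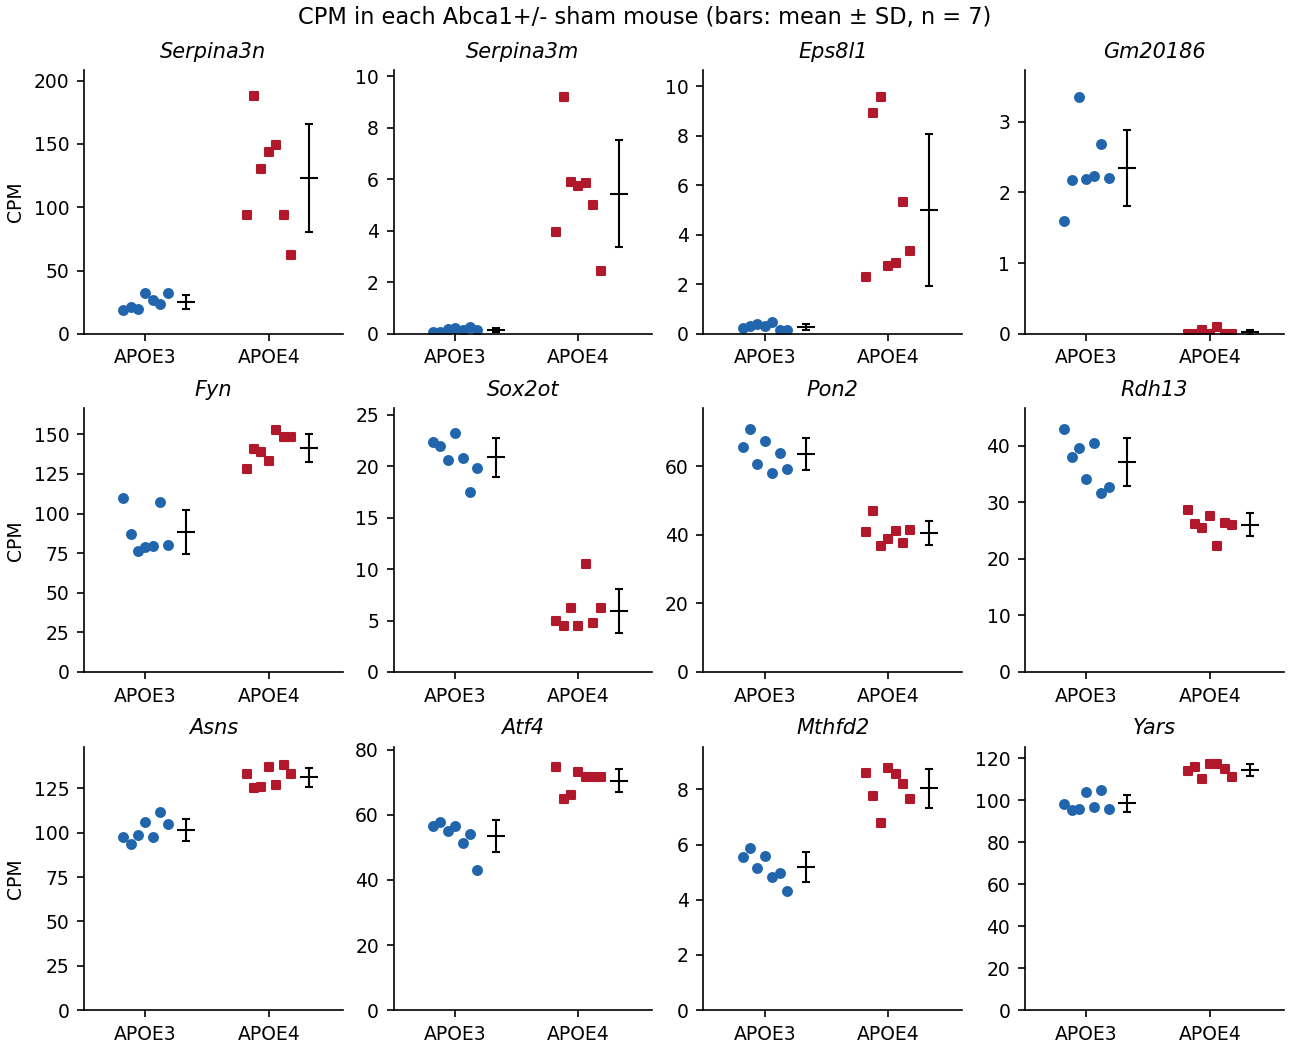
Level of 12 genes in each of the 14 sham Abca1+/- mice, in CPM on linear axes from 0, with a point per mouse and the mean ± SD of each isoform (n = 7) beside the points. Serpina3n, Serpina3m, Eps8l1, Fyn, Asns, Atf4, Mthfd2 and Yars are higher in E4 mice and Gm20186, Sox2ot, Pon2 and Rdh13 are lower, with no overlap between the isoforms for any of the 12.

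Another stretch picked in this way was the first 5 Mb of chromosome 7. There 7 of 46 tested genes were called (15.2%), beside 5.76% for chromosome 7 and 5.27% for all genes. Eps8l1, which encodes a relative of the actin regulator EPS8, ran from 2.28 to 9.58 CPM in E4 mice (median 3.35) and from 0.166 to 0.497 CPM in E3 mice (median 0.302). All E4 mice were above all E3 mice, with a log2 fold change of 4.01 ± 0.41 (adjusted p = 3.22e-05). The adjacent D630041G03Rik, a transcript of unknown function, was between 3.03 and 4.72 CPM in E4 mice and between 0.408 and 1.14 CPM in E3 mice, a log2 fold change of 2.14 (adjusted p = 3.70e-06), and had no GC content to correct by. Oscar, a collagen receptor of osteoclasts and myeloid cells, rose by 3.09 (adjusted p = 0.00017), from at most 0.302 CPM to between 0.733 and 1.61 CPM. Ptprh, a receptor-type tyrosine phosphatase, rose by 2.76 (adjusted p = 1.37e-05), from at most 0.503 CPM to between 1.61 and 3.08 CPM. All of these were weakly expressed genes, at 1.14 CPM or less in every E3 mouse, and none overlapped between the groups.

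In the same 5 Mb other genes fell or rose only slightly. Rdh13, a retinol dehydrogenase of mitochondria, ran from 22.3 to 28.7 CPM in E4 mice (median 26.1) and from 31.7 to 42.9 CPM in E3 mice (median 38). The groups were apart, and it was lower by a log2 fold change of -0.51 (adjusted p = 0.000743). Its annotated span (chr7:4425665-4471280) overlaps that of Eps8l1 (chr7:4460638-4480487), and since the strand setting of the counting is not given in the sources used here, reads of the pair cannot be fully separated. Rpl28, a protein of the large ribosomal subunit, was lower by -1.66 (adjusted p = 3.22e-05), from between 2.75 and 5.07 CPM in E3 mice to between 0.847 and 1.69 CPM in E4 mice. Ribosomal protein genes have many pseudogene copies that share their reads, so that this value is uncertain. Mboat7, an acyltransferase of phosphatidylinositol, was higher by 0.23. Further along, between 30 and 35 Mb, 9 of 58 genes were called (15.5%, against the same 5.76%), among them Alkbh6 (-0.58, adjusted p = 0.000277), an AlkB-family oxygenase, and, named after their values were seen, Kirrel2 (0.71), a cell adhesion protein, and Hspb6 (0.57), a small heat shock protein.

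Called genes were also counted around the engineered loci. Within 5 Mb of Apoe 10 of 91 tested genes were called (11%, beside 5.76% for chromosome 7), 1 higher (Zfp111, 0.24) and 9 lower (Bcam, Irgq, Ccdc9, Inafm1, Kptn, Nova2, Trappc6a, Zc3h4 and Dact3). Nova2, a neuronal splicing factor, ran from 103.6 to 136.1 CPM in E4 mice (median 129.0) and from 134.5 to 153.4 CPM in E3 mice (median 146.0), with overlapping groups and a log2 fold change of -0.21 (adjusted p = 0.0303). With the correction for GC content 0 of these genes were called, and Dact3, at -0.17 without the correction, was at 0.11 with it. Of the 10 genes only Bcam and Irgq kept their calls whichever mouse was left out. Within 5 Mb of Abca1 only Mrpl50 of 33 genes was called (3.03%), a mitochondrial ribosomal protein gene that was higher by 0.31 (adjusted p = 0.0012) and remained past the threshold with the correction.

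Outside the stretches named above a few single genes stood far apart. Gm20186, a predicted gene on chromosome 6, had at most 2 counts in any E4 library and between 1.6 and 3.35 CPM in the E3 libraries (median 2.21), so that it was at least 16.5-fold lower in E4 mice when a floor of 3 counts per library is used. Sox2ot (chr3:34560381-34677993), a long noncoding RNA whose span includes Sox2, ran from 4.48 to 10.5 CPM in E4 mice (median 4.98) and from 17.5 to 23.2 CPM in E3 mice (median 20.8). E4 mouse 5 was the highest of its group and still below every E3 mouse. The log2 fold change was -1.82 ± 0.15 (adjusted p = 3.70e-06), and without strand information reads of Sox2 itself cannot be kept apart from it.

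Pon2 (chr6:5264620-5298345), a lactonase that protects membranes from lipid oxidation, ran from 36.9 to 47.1 CPM in E4 mice (median 40.9) and from 58.2 to 70.9 CPM in E3 mice (median 64.0). The groups were apart, and the log2 fold change was -0.65 ± 0.06 (adjusted p = 5.98e-06). It lies in the stretch of chromosome 6 between 5 and 10 Mb, also picked for its calls. There 8 of 22 tested genes were called (36.4%), beside 6.21% for chromosome 6. Its neighbours, named after their values were seen except for Asns, included Pdk4 (0.58), a kinase that restrains pyruvate oxidation, Ica1 (-0.32), a protein of secretory vesicles, and Nxph1 (0.28), a ligand of neurexins. Fyn (chr10:39369743-39565381), a Src-family kinase that signals at synapses and in myelin formation, ran from 127.7 to 152.9 CPM in E4 mice (median 141.0) and from 76.1 to 109.6 CPM in E3 mice (median 80.3). Its groups were also apart, with a log2 fold change of 0.68 ± 0.08 (adjusted p = 0.00017).

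Smaller differences with low p included Hes5, a Notch target that holds back neuronal differentiation, which was lower by -0.63 (adjusted p = 0.000743), and Krt12, a keratin, lower by -0.77 (adjusted p = 0.00116). Snrpd1, a core protein of the spliceosome, was higher by 0.42 (adjusted p = 0.000249), and Tspyl4 was higher by 0.24 (adjusted p = 0.000249). Among the calls with the largest fold changes, 2 belonged to genes that varied widely among the E3 mice. Fam205c had a log2 fold change of 2.89 (adjusted p = 0.0193), although E3 mouse 7 stood at 5.75 CPM within the E4 range of 4.22 to 11.3 CPM and the other E3 mice at 0.454 CPM or less, and its value was 4.97 without E3 mouse 7 (adjusted p = 3.25e-06) and 2.71 without E4 mouse 7 (adjusted p = 0.0509). AA465934 had a log2 fold change of -2.58 (adjusted p = 0.0223), carried by E3 mice 3, 6 and 7 at 8.04 to 13.9 CPM, with all other mice of either isoform between 0.546 and 1.63 CPM, and without E3 mice 6 and 7 its adjusted p was 0.0734.

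Several genes of amino acid supply and tRNA charging were called higher. ATF4 is a transcription factor whose protein is made when amino acids run short or protein folding is disturbed, and its targets include asparagine synthetase, amino acid transporters and many of the cytosolic aminoacyl-tRNA synthetases, which load amino acids onto tRNA. Of the 23 tested genes of the cytosolic synthetase list 7 were higher and 0 lower (Cars 0.25, Gars 0.22, Iars 0.20, Nars 0.21, Rars 0.22, Yars 0.22 and Eef1e1 0.25), beside 2.92% of all genes called higher. In all 19 of the 23 had a fold change above 0, and the median of the list was 0.09, beside 0.0012 for all genes. DESeq2 called 9 of the list higher and Hars lower, beside 689 higher and 675 lower of all 14920 genes. The edgeR exact test called 8 higher and 0 lower, beside 480 and 502. In the quasi-likelihood test 1 member was called lower without E3 mouse 6 or without E4 mouse 1. Of the 35 tested ATF4 and amino acid stress genes 7 were higher and 0 lower, 24 were above 0, and the median was 0.08. DESeq2 called 10 of these 35 higher and the edgeR exact test 8, with 0 lower in either. Of the ER list, 0 of 28 ER chaperones and genes of the unfolded protein response were called, with 19 above 0 and a median of 0.05. At an unadjusted p under 0.05 there were 2 of these 28, and neither DESeq2 nor the edgeR exact test called any.

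Asns (chr6:7675165-7693209), which makes asparagine, ran from 124.7 to 138.1 CPM in E4 mice (median 133.0) and from 93.9 to 111.8 CPM in E3 mice (median 98.6). No E3 mouse reached the lowest E4 mouse, and the log2 fold change was 0.37 ± 0.04 (adjusted p = 7.0e-05). Atf4 itself (chr15:80255184-80257545) ran from 65.0 to 74.8 CPM in E4 mice (median 71.5) and from 43.2 to 57.8 CPM in E3 mice (median 55.0). It too was apart between groups, with a log2 fold change of 0.40 ± 0.06 (adjusted p = 0.00096). Mthfd2, a mitochondrial enzyme that supplies one-carbon units, ran from 6.78 to 8.79 CPM in E4 mice (median 8.21) and from 4.31 to 5.87 CPM in E3 mice (median 5.17), again without overlap, and its log2 fold change was 0.63 ± 0.08 (adjusted p = 0.000618).

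Chac1, which breaks down glutathione, was higher by 0.58 (adjusted p = 0.0154), but the groups overlapped, with E4 mice between 5.50 and 9.24 CPM and E3 mice between 4.12 and 6.47 CPM. The transporters of cationic amino acids Slc7a3 (0.45) and Slc7a1 (0.18) and the transcription factor Cebpg (0.18) completed the 7 called genes of the list. Gars, the glycyl-tRNA synthetase, ran from 145.6 to 157.7 CPM in E4 mice (median 152.0) and from 124.1 to 135.8 CPM in E3 mice (median 131.0). Yars, the tyrosyl-tRNA synthetase, ran from 110.1 to 117.4 CPM in E4 mice (median 115.0) and from 95.4 to 105.1 CPM in E3 mice (median 96.6). For both synthetases every E4 mouse was above every E3 mouse, at log2 fold changes of 0.22 ± 0.03 each (adjusted p = 0.000922 for Gars and 0.00116 for Yars). Among the 17 mitochondrial synthetases tested, Iars2 was higher (0.21), and the median of the list was 0.02.

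These counts did not shrink with the correction for GC content, under which 8 of the cytosolic synthetase list and 10 of the ATF4 list were called, at medians of 0.11 and 0.10. The genes were not all the same, since Eef1e1 (adjusted p = 0.0978) and Cebpg (adjusted p = 0.188) lost their calls under it. Over all tested genes 1.24% were called higher with the correction. The list counts fell to 3 and 4 without E4 mice 3, 6 and 7, at a median of 0.10 for the synthetases. In that setting 67 of all 15017 tested genes were called higher. In females alone the list counts were 1 and 3, beside 86 of 14909 genes called higher. In males alone they were 1 and 2, beside 24 of 15020. In sham mice with both Abca1 copies the medians of the synthetase and ATF4 lists were 0.05 and 0.09, in injured Abca1+/- mice 0.08 and 0.10, and in injured mice with both copies 0.05 and 0.04.

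Many ATF4 targets carry the C/EBP-ATF response element, and its core was searched in RefSeq promoters (GRCm38.p6, 250 bases before to 50 after the annotated start) as TGATGNAA, with N any base, on either strand. It was present in 320 of 11564 promoters of tested genes (2.77%), in 14 of 336 of the genes called higher (4.17%) and in 2 of 288 of those called lower (0.694%). In the cytosolic synthetase list 5 of 16 promoters held it (31.2%), and 3 of the 4 of called members. In the ATF4 list 6 of 30 held it (20.0%), and 2 of the 6 of called members. Among the mitochondrial synthetases 0 of 14 promoters held it, and in the ER list 1 of 23 (4.35%). The share of a whole list rests on its sequences and not on levels in these mice. Promoters of 4 called genes from these lists that hold the motif are shown to let its place be read, 5′ to 3′ on the strand of the gene, with the motif in capitals (as TGATGNAA, or TTNCATCA where it lies on the opposite strand).
Asns, chr6:7693160-7693459, minus strand: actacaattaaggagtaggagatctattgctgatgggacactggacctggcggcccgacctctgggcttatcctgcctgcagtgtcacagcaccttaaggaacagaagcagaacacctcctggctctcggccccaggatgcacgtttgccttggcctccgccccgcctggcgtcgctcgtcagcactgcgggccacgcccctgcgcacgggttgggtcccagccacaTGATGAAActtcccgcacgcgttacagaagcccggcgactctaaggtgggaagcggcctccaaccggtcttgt
Gars, chr6:55037751-55038050, plus strand: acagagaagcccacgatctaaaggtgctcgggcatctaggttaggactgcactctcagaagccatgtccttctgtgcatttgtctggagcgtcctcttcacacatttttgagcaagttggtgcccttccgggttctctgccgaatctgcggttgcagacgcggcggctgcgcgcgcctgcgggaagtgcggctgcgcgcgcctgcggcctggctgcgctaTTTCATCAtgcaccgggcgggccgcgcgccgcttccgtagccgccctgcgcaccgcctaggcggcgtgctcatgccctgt
Yars, chr4:129189653-129189952, plus strand: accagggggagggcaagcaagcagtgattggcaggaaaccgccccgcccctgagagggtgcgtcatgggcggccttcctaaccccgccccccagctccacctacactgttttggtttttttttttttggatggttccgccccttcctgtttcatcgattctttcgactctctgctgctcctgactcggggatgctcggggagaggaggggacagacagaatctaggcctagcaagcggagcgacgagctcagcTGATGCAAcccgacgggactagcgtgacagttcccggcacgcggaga
Chac1, chr2:119350992-119351291, plus strand: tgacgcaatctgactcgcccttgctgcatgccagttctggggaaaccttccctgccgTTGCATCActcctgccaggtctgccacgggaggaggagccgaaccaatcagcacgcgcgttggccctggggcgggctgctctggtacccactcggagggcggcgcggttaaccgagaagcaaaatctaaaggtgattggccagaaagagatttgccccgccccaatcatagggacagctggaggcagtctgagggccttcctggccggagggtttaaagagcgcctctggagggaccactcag
The match began 23 bases before the annotated start in Asns, 30 before it in Gars and 193 before it in Chac1, and 3 bases after it in Yars. The called gene Iars, whose promoter is not shown, held a match that began 7 bases after the start. A match is a description of these letters and not of bound ATF4, and the windows of Atf4, Cebpg, Eef1e1, Mthfd2 and Slc7a1 held none.

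**Figure D4:**
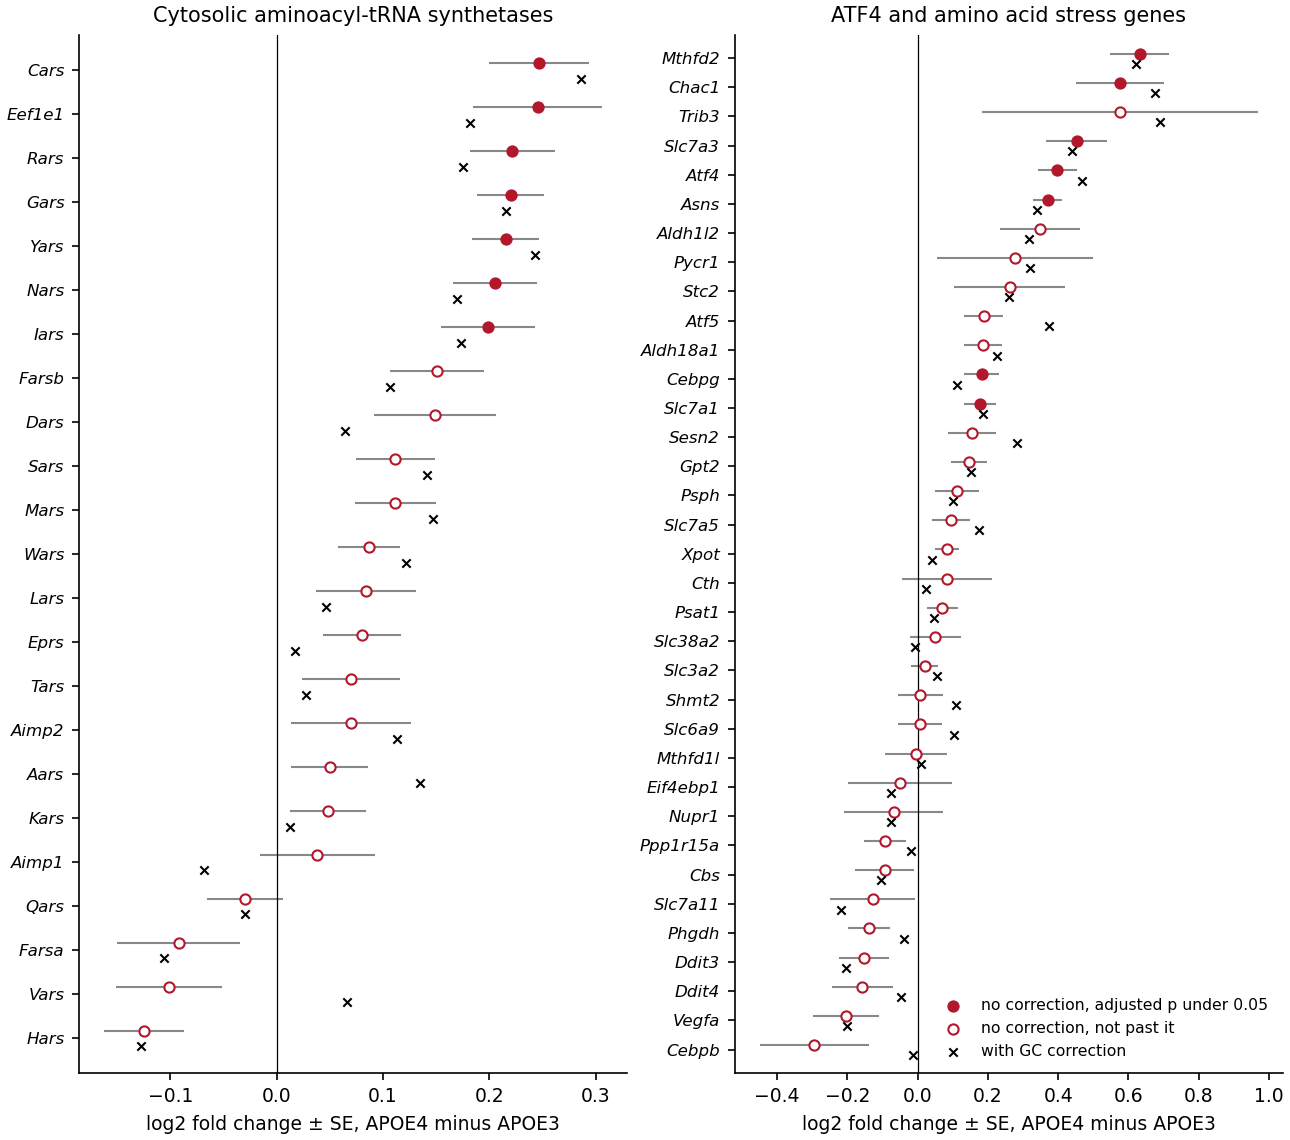
Log2 fold change of E4 minus E3 (horizontal axis) for the 23 tested genes of the cytosolic synthetase list (left) and the 35 of the ATF4 list (right) in sham Abca1+/- mice, with bars for the SE, filled points for called genes and crosses for the values with GC correction. Each list holds 7 called genes, all above 0, and the lowest values belong to Hars and Cebpb, which were not called in this test. DESeq2 called Hars lower.

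Genes of lipid transport, the process that APOE and ABCA1 serve, hardly differed. In the list of 31 cholesterol efflux, lipidation and LXR genes 0 were called higher or lower by edgeR, 5 were lower and 0 higher at an unadjusted p under 0.05, and the median was 0.0017. The lowest p values belonged to Nr1h2 (-0.27, adjusted p = 0.0696), which encodes the nuclear receptor LXR beta, and Srebf1 (-0.25, adjusted p = 0.0749), a regulator of lipid synthesis, and both were called lower by DESeq2 and by the edgeR exact test. Of 21 members of the LDL receptor family 0 were called, with 3 lower at an unadjusted p under 0.05 and a median of -0.04, and both other tools called Lrp3 lower. Of 34 genes of sterol and fatty acid synthesis 2 were called, both lower: Mvk, mevalonate kinase (-0.28, adjusted p = 0.0341), and Scap, the sterol sensor that escorts SREBP (-0.14, adjusted p = 0.0401). Over all tested genes 2.36% were called lower, and both Mvk and Scap fell outside the threshold with the correction for GC content.

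No microglial, complement or interferon gene of the lists was called by edgeR's quasi-likelihood test in these 14 mice, and 1 mouse weighed on their values. Of 23 genes of disease-associated microglia 0 were called and 20 were above 0, with a median of 0.16. Of 27 interferon-stimulated genes 0 were called and 22 were above 0 (median 0.21), and of 20 complement genes 0 were called and 13 were above 0 (median 0.06). At an unadjusted p under 0.05 there were 6, 7 and 5 genes, all higher. Over all 14920 tested genes 1728 were higher and 1763 lower at this threshold (23.4% in either direction). DESeq2 called 0 in each list, and the edgeR exact test called 1 in each, Gpnmb, Ifi44 and C3. In 1 fit over the 4 sham groups Gpnmb (adjusted p = 0.0199), Lgals3 (adjusted p = 0.0298) and C3 (adjusted p = 0.0113) passed the threshold. E4 mouse 2 stood apart in these lists. Gpnmb, a glycoprotein of lipid-laden phagocytes, was at 61.7 CPM in this mouse and at most 7.38 CPM in the other E4 mice, beside 2.30 to 5.64 CPM in E3 mice. C3, the central complement component, was at 33.2 CPM there and at most 3.23 CPM in the other E4 mice, beside 0.304 to 1.59 CPM in E3 mice. Without E4 mouse 2 the log2 fold change of Gpnmb went from 1.75 to 0.35 and that of C3 from 3.00 to 0.68, and the medians of the 3 lists were 0.02, 0.12 and -0.03. Of 20 homeostatic microglial genes, 9 of MHC class II presentation and 22 of myelin and oligodendrocytes 0 were called, with medians of 0.05, -0.11 and 0.04 and 6, 0 and 4 genes at an unadjusted p under 0.05. DESeq2 called Selplg lower and the myelin genes Ermn and Ugt8a higher, and the edgeR exact test called Ermn. In these bulk samples fewer cells of a type and less RNA per cell cannot be told apart.

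Neuronal and vascular lists held single called members or none, beside 5.27% of all tested genes called. Npas4, a transcription factor switched on by neuronal activity, was the only one of 22 immediate early genes past the threshold (-0.76, adjusted p = 0.0363), at 8.67 to 15.7 CPM in E4 mice and 12.6 to 33.9 CPM in E3 mice. The groups overlapped, 18 of the 22 genes had a fold change below 0 with a median of -0.17, and with the correction for GC content the adjusted p of Npas4 was 0.097. It also lost its call when any of E3 mice 2, 5, 6 and 7 or E4 mice 2, 6 and 7 was left out (highest adjusted p = 0.0823). Cplx1, a regulator of vesicle fusion, was lower (-0.22, adjusted p = 0.0109), the only one called of 25 genes of vesicle release. Grin2d, an NMDA receptor subunit, was lower (-0.36, adjusted p = 0.0491), alone among 15 AMPA and NMDA receptor genes, and was not called after the correction (adjusted p = 0.454). Of 13 GABA-A receptor genes and 18 interneuron markers 0 were called, with 4 genes at an unadjusted p under 0.05 in each. Acta2, the actin of vascular smooth muscle, was lower by -0.63 (adjusted p = 0.0239), and the list of 22 endothelial and pericyte genes had a median of -0.15 with 2 genes above 0. Acta2 lost its call without E3 mouse 2 or 5, and DESeq2 also called Vtn lower. In sham mice with both Abca1 copies the median of this list was 0.09, with 17 genes above 0.

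Among genes tied to Alzheimer's disease, Picalm, which works in clathrin-mediated uptake, was higher by 0.22 (adjusted p = 0.00456), 1 of 19 myeloid risk genes. Over all tested genes 5.27% were called, the share to set beside this list and those that follow. Aph1b, a subunit of gamma-secretase, was higher by 0.19 (adjusted p = 0.0189), 1 of 19 genes of amyloid processing, and was not called with the correction for GC content (adjusted p = 0.136). Psmb10, an immunoproteasome subunit, was the only one of 17 MHC class I genes called (-0.24, adjusted p = 0.0461), and its adjusted p was 0.196 with the correction. All 15 mitochondrially encoded genes had fold changes below 0, at a median of -0.21, and ATP8 passed the threshold (-1.47, adjusted p = 0.0352), with 9 genes lower at an unadjusted p under 0.05 beside 23.4% of all genes in either direction. ATP8 lost its call when any of E3 mice 2, 3 and 5 or E4 mice 2, 3, 6 and 7 was left out (highest adjusted p = 0.0889). With the correction for GC content 6 of 13 were called lower (median -0.32), beside 0.738% of all genes. Without E4 mouse 1 there were 5 called lower, where 814 of all 14941 tested genes were called lower. Without E3 mouse 4 there were 4, where 330 of all 14941 were. In females alone the median of this list was -0.03, and in sham mice with both Abca1 copies it was 0.13.

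Markers of tissue that a dissection may carry along were compared in the same test, and 0 genes of the 8 marker lists were called by edgeR's quasi-likelihood test, while both other tools called Plk5 of the dentate gyrus list and Bcl11b of the cortical layer list, each lower. At an unadjusted p under 0.05 there were 8 genes over the 8 lists. Summed choroid plexus markers varied widely within each isoform, from 17.3 to 1400 CPM in E4 mice and from 15 to 1070 CPM in E3 mice, with a median fold change of 0.46 over 10 genes. Meningeal and fibroblast markers summed to 628.3 to 1036 CPM in E4 mice and 660.8 to 1437 CPM in E3 mice. The labelled tissue was seen in every mouse: cortical layer markers summed to 715.6 to 933.9 CPM, CA1 and CA3 markers to 708.5 to 874.5 CPM and dentate gyrus markers to 278.5 to 402.2 CPM over the 14 mice. Summed markers of each of these regions, and of thalamus and striatum, overlapped between the isoforms. Rn45s, the ribosomal RNA precursor, was at 572.1 to 9125 CPM in E4 mice and 989.9 to 27040 CPM in E3 mice, with E3 mice 6 and 7 highest.

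The same comparison in the other 3 pairs of groups used no mouse of this one. There 49 of 14172 genes were called in sham mice with both Abca1 copies (0.346%), 434 of 15121 in injured Abca1+/- mice (2.87%) and 29 of 14014 in injured mice with both copies (0.207%). Of the 787 genes, 708 of 776 tested (91.2%) had the same direction in sham mice with both copies, 744 of 787 (94.5%) in injured Abca1+/- mice and 624 of 772 (80.8%) in injured mice with both copies. Among genes not called here the shares were 60.2%, 66.7% and 54.8%. Past the threshold in the same direction were 40, 125 and 25 of the 787, and 0 were past it in the opposite direction. Libraries of mice with both Abca1 copies were shallower, with median totals from 6835372 to 9715595 counts, so that fewer calls in these pairs do not show a smaller difference.

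**Figure D5:**
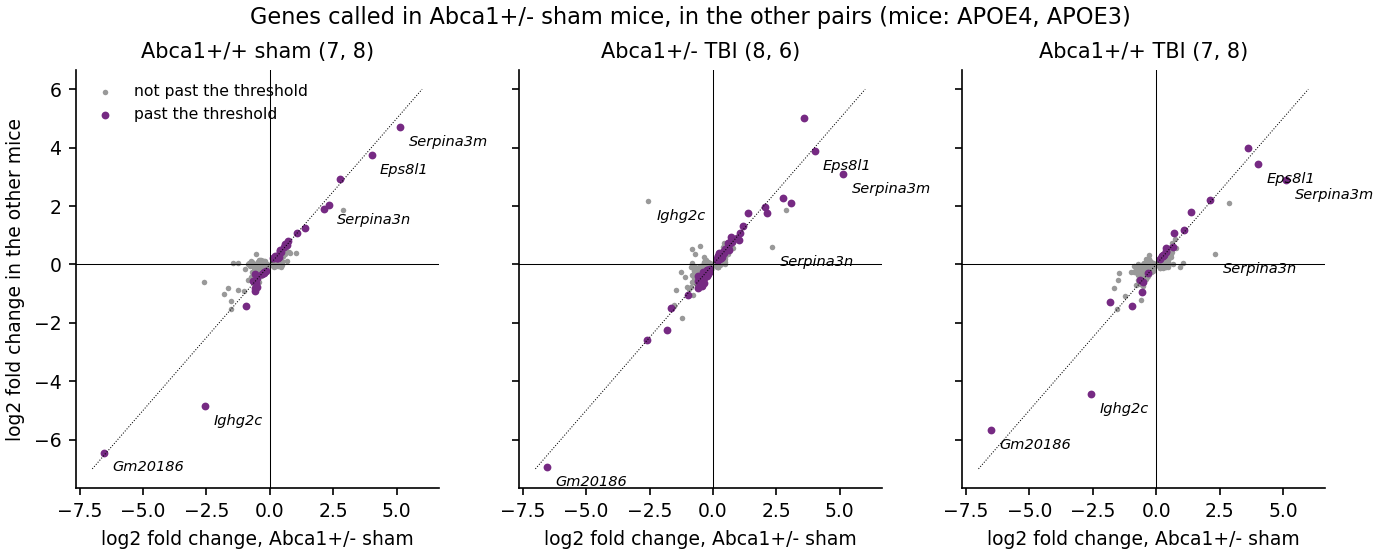
Log2 fold change of E4 minus E3 in sham Abca1+/- mice (horizontal axis) against the same in each of the other 3 pairs of groups (vertical axes) for the called genes. The pairs share no mouse. Directions match for 91.2% of the genes in sham mice with both Abca1 copies, 94.5% in injured Abca1+/- mice and 80.8% in injured mice with both copies, and Serpina3n lies near the diagonal in sham mice and below it in injured mice.

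Called with the same direction in all 4 pairs were 11 genes: AK010878, Atf4, D430020J02Rik, D630041G03Rik, Eps8l1, Fyn, Gm20186, Kirrel2, Nudt3, Rdh13 and Serpina3m. Eps8l1 differed by 4.01, 3.74, 3.88 and 3.43 in sham Abca1+/-, sham Abca1+/+, injured Abca1+/- and injured Abca1+/+ mice. Fyn differed by 0.68, 0.66, 0.77 and 0.59 in the same order, and Atf4 by 0.40, 0.44, 0.42 and 0.45. Nudt3, a phosphohydrolase of inositol phosphates named after its values were seen, was at 290.6 CPM against 242.3 CPM in sham Abca1+/- mice, a log2 fold change of 0.26.

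Whether the isoform difference depended on Abca1 copy or on injury was tested by interaction terms. Between sham mice with 1 and with both Abca1 copies, 0 of 14894 genes had a different isoform effect in edgeR's quasi-likelihood test (smallest adjusted p = 0.509), with 1092 genes at an unadjusted p under 0.05 (7.33%) and 0 called by DESeq2. Between sham and injured Abca1+/- mice 0 of 15162 genes did in edgeR (smallest adjusted p = 0.21), with 961 at an unadjusted p under 0.05 (6.34%), and DESeq2 called 3, Spsb2, Stra13 and Serpina3n. Serpina3n was higher in both isoforms after injury, at 329.0 ± 135.0 CPM in E4 mice (SD, n = 8) and 219.0 ± 82.5 CPM in E3 mice (SD, n = 6). Its isoform difference there was 0.59 (adjusted p = 0.233), and the change of that difference with injury was -1.70 ± 0.35 (adjusted p = 0.265). In sham mice with both Abca1 copies it was 2.04 (adjusted p = 1.57e-06).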

How the data were processed

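The authors deposited 1 table of raw read counts per gene, not normalized. The submitters' processing notes name Subread 1.5.0, featureCounts, edgeR and the mm10 build. How reads that map to several places were handled, and the strand setting, are not given in the sources used here. Counts of 14 mice were tested with edgeR 4.0.16 (R 4.3.3): filterByExpr (251 of 15171 genes removed), TMM factors (0.961 to 1.026), and the quasi-likelihood test with Benjamini-Hochberg adjustment, after the study's own use of edgeR. The common biological coefficient of variation was 0.11. DESeq2 1.42.0, edgeR's exact test, other filters and scalings, sex as a covariate, thinning, leaving out mice and a GC correction (per-library loess on the GC content of the longest GENCODE vM21 transcript, chosen after seeing the data) were alternatives. Samples were grouped by labels, which describe separate animals. Gene IDs of 14999 genes (98.9%) matched RefSeq GRCm38.p6, which gave coordinates and promoters. For 23 genes, symbols turned into dates were named by ID. Named genes were Apoe and Abca1, the 12 lowest p in each direction, the 5 largest fold changes in each direction at 1 CPM or more, genes nearly absent from 1 group (at most 3 counts in every library), list members past the threshold (or the 2 lowest p), and called genes within 5 Mb of either locus. Members and lists were chosen with earlier results of these data known. Scripts were tested on simulated counts. Results for some genes are not reported here.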

Additional observations from a re-analysis of the deposited data

Results flagged for a closer look

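For each named gene the highest and the lowest mouse of each isoform were compared with the other 6 of their group by Dixon's ratio of gap to range. Of 204 groups of values 20 held a mouse past the 95% limit, and chance alone gives about 1 in 20 groups. Each value is given beside the nearest other mouse of its group.

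E4 mouse 2 was the one with most of these values, and its phagocyte and complement genes were high: Gpnmb at 61.7 CPM (next 7.38), C3 at 33.2 CPM (next 3.23), the galectin gene Lgals3 at 5.53 CPM (next 1.61) and the complement receptor gene C3ar1 at 5.89 CPM (next 3.23). In the same mouse Nova2 was low at 104.0 CPM (next 125.0).

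Among genes with large isoform differences, Sox2ot was at 10.5 CPM in E4 mouse 5 (next 6.20), Ptprh at 3.08 CPM in E4 mouse 1 (next 2.18), Fam205c at 5.75 CPM in E3 mouse 7 (next 0.454) and 4833420G17Rik at 24.7 CPM in E4 mouse 3 (next 18.7). Ighg2c was at 1.93 CPM in E4 mouse 7 (next 0.318) and at 3.02 CPM in E3 mouse 4 (next 2.34).

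Among the genes of tRNA charging and amino acid stress, Cars was at 46.7 CPM in E4 mouse 1 (next 42.6), Iars2 at 67.2 CPM in E3 mouse 6 (next 59.2), Cebpg at 38.6 CPM in E3 mouse 7 (next 43.5) and Dnajb9, an ER chaperone, at 48.5 CPM in E3 mouse 1 (next 45.9). Mvk was at 12.9 CPM in E4 mouse 3 (next 16.5).

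The remaining values were Zic1 at 40.9 CPM in E3 mouse 2 (next 8.95), Bok at 25 CPM in E4 mouse 1 (next 33.8), Kptn at 20.1 CPM in E4 mouse 5 (next 22.8) and Dact3 at 140.0 CPM in E4 mouse 5 (next 118.0).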

How the results depend on the processing

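No paired analysis was possible because the labels give no replicate numbers shared between groups. The 435 higher and 352 lower genes became 689 and 675 with the DESeq2 Wald test, 1728 and 1763 at an unadjusted p under 0.05, 183 and 109 with the GC correction, 193 and 125 with the GC correction and sex, and 67 and 20 without E4 mice 3, 6 and 7. Within sex they were 86 and 101 in females and 24 and 9 in males. One fit over the 4 sham groups gave 530 lower genes, and leaving out E3 mice 6 and 7, highest in Rn45s, gave 230. The GC settings and these mice were chosen after seeing the data. Leaving out 1 mouse at a time gave 207 to 731 higher and 132 to 814 lower genes. Totals moved by more than 1.5 times from 787 without E3 mouse 2 (370), 3 (435), 5 (401) or 7 (499) and without E4 mouse 1 (1545), 2 (385), 3 (405), 5 (1354), 6 (339) or 7 (364). The share of higher genes was 55.3% with all mice, 47.3% to 64.7% with 1 left out and 62.7% with the GC correction.

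Genes called in each setting and tested in the other mice were counted where they passed the threshold in the same direction. DESeq2 gave 72 of 1363 in sham Abca1+/+, 280 of 1364 in injured Abca1+/- and 42 of 1363 in injured Abca1+/+ mice. In the same order the GC correction gave 26 of 287, 64 of 292 and 22 of 285, beside 40 of 776, 125 of 787 and 25 of 772 in the main test. For the interaction with injury DESeq2 called 3 genes. Dact3 changed sign, to 0.11 with the GC correction and 0.092 with the GC correction and sex. Of 63 named genes past the threshold, 44 kept the call whichever mouse was left out, 43 kept it with the GC correction, 19 lost it, Dact3 among them, and 1 had no GC value. Apart from base composition, for which values are given, the cause of these changes was not tested.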
